A study of Caenorhabditis elegans with 8 samples.

Results

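The 9 genes described here encode proteins of the *C. elegans* oocyte and of the eggshell that it builds: the oocyte maturation factors *oma-1* and *oma-2*, the maternal RNA-binding proteins *pos-1*, *mex-5* and *puf-5*, the eggshell proteins *cbd-1* and *chs-1*, and the egg surface and activation proteins *egg-1* and *egg-3*. They were taken by gene identifier from the 46928 genes of the deposited count table. No measured value was part of the rule, but earlier results of these data were known when the genes were chosen. The libraries came from populations of whole hermaphrodites of the wild-type strain N2, fed OP50 bacteria, with 4 populations grown on plates that held 50 μM urolithin A (UA), a gut-bacterial metabolite studied as an inducer of mitophagy, and 4 left untreated as controls. All animals of both groups were wild type, and each library came from a separately harvested population of pooled animals. The series text places the treatment between the L4 stage and day 4 of adulthood whereas the methods of the study name day 1, so the age at harvest is uncertain. The comparison of UA with control asks whether the compound alters gene expression, here in the maternal programme of the oocyte.

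Oocytes of the hermaphrodite grow and mature in single file along the gonad, halt transcription before fertilization, and carry a store of messenger RNA whose translation is held back or released by RNA-binding proteins. Fertilization takes place in the spermatheca, triggers egg activation, and is followed by the completion of the eggshell. The finished eggshell has an outer vitelline layer, a chitin layer and an inner proteoglycan layer. The embryo runs its first divisions on this maternal store, and an adult hermaphrodite also carries young embryos in the uterus, so RNA of these genes in whole animals can come from oocytes and from embryos. In such whole-animal samples a lower level can come from fewer germ cells or embryos or from less RNA in each, and these cannot be told apart.

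UA changed none of the 9 genes beyond the spread between populations. No gene passed an unadjusted p under 0.05 with a fold change over 1.2 in either direction (the thresholds of the study, used here with edgeR's quasi-likelihood F test), where 5.67% of the 13720 genes tested did. No gene passed an adjusted p under 0.05 (Benjamini-Hochberg over all genes tested), where 0.0948% did, and none passed an unadjusted p under 0.05, where 7.25% did. The 4 UA and 4 control values overlapped for all 9 genes, while 4.78% of the genes tested had groups that did not overlap. The lowest unadjusted p of the 9 was 0.252 and their adjusted p lay between 0.864 and 0.996.

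The precision was high enough to bound the effect on levels relative to the rest of a library. The amount of RNA per animal was not measured. All 9 genes passed the filter on low counts, with standard errors between 0.042 and 0.072 on the log2 scale, against a median of 0.14 over all genes tested. The 95% interval of the UA effect lay inside a 1.2-fold change in either direction for all 9 genes, as it did for 35.7% of all genes tested and for 81.2% of the 564 genes at least as abundant as *egg-3*, the least abundant of the 9. Over the 9 genes the interval bounds ran from 0.869-fold to 1.12-fold. The median log2 fold change of the 9 was -0.034, beside -0.0030 for all genes tested, and 6 of 9 values lay under 0, beside 51.1% of all genes.

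Sequencing depth was even, with 41890058 to 43055719 counted fragments per library. The 9 genes together took between 1.05% and 1.17% of the counts of a library. Levels below are CPM (counts scaled to a fixed library total) on TMM-normalized library sizes, which compare a gene between libraries. Levels between genes are given as CPM per kilobase of exon. Populations of a condition are listed in the order of replicates 1 to 4.

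The oocyte maturation factors came first. *oma-1* (CELE_C09G9.6) and *oma-2* (CELE_ZC513.6) encode closely related CCCH zinc-finger proteins that act redundantly in oocyte maturation and repress the translation of maternal messages until the first embryonic division. In the WBcel235 assembly *oma-1* lies on chromosome IV from 8888976 to 8890999 on the plus strand, with 1801 bases of exon in 6 blocks. *oma-2* lies on chromosome V from 8029439 to 8031214 on the plus strand, with 1546 bases in 6 blocks. Both are annotated as protein coding, and no other annotated gene overlaps either.

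*oma-1* stood at 507, 481, 476 and 480.4 CPM in the control populations and at 459.7, 493, 468 and 462 CPM with UA. Control 1 was the highest of the 8 and UA 1 the lowest, and UA 2 exceeded 3 of the 4 controls. The means were 486 ± 14.4 CPM (SD, n = 4) in control and 471 ± 15.4 CPM (SD, n = 4) with UA, a log2 fold change of -0.047 (SE 0.042, edgeR adjusted p = 0.877), or 0.968-fold with a 95% interval of 0.908 to 1.03.

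*oma-2* stood at 1020.1, 1001, 874 and 874 CPM in control and at 929, 931, 913 and 922 CPM with UA. The UA values were close together and lay inside the control range, between controls 1 and 2 above and controls 3 and 4 below. The means of 942 ± 79.3 CPM and 924 ± 8.002 CPM (SD, n = 4 each) gave a log2 fold change of -0.029 (SE 0.061, edgeR adjusted p = 0.957), or 0.98-fold with an interval of 0.893 to 1.08.

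*pos-1*, *mex-5* and *puf-5* encode maternal RNA-binding proteins with other tasks. *pos-1* (CELE_F52E1.1) encodes a CCCH zinc-finger protein that regulates maternal messages in the posterior of the early embryo. It lies on chromosome V from 8414086 to 8415254 on the plus strand, with 1117 bases of exon in 2 blocks, the shortest of the 9. *mex-5* (CELE_W02A2.7) encodes a CCCH protein that becomes concentrated at the anterior of the zygote and drives germline factors to the posterior. It lies on chromosome IV from 13353723 to 13356104 on the plus strand, with 1975 bases in 5 blocks. *puf-5* (CELE_F54C9.8) encodes a Pumilio-family translational repressor of late oogenesis, and lies on chromosome II from 8575541 to 8577787 on the plus strand, with 2069 bases in 5 blocks.

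*pos-1* stood at 1379.7, 1354, 1215 and 1173 CPM in control and at 1351, 1374, 1203 and 1207 CPM with UA. Replicates 1 and 2 were high and replicates 3 and 4 low in both conditions. The means were nearly equal, at 1281 ± 102 CPM and 1284 ± 91.3 CPM (SD, n = 4 each), with a log2 fold change of 0.0036 (SE 0.072, edgeR adjusted p = 0.996), or 1.002-fold with an interval of 0.897 to 1.12, the value of the 9 nearest to no change.

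*mex-5* stood at 1239.6, 1234, 1312 and 1297 CPM in control and at 1314, 1399.9, 1267 and 1274 CPM with UA. UA 1 and UA 2 lay above their 2 same-numbered controls and UA 3 and UA 4 below theirs. The means of 1271 ± 39.4 CPM and 1314 ± 61.1 CPM (SD, n = 4 each) gave a log2 fold change of 0.048 (SE 0.051, edgeR adjusted p = 0.906), or 1.03-fold with an interval of 0.956 to 1.12.

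*puf-5* stood at 1842, 1810.1, 1609.5 and 1599.6 CPM in control and at 1713, 1708, 1586 and 1581 CPM with UA. Each UA value lay under its same-numbered control, but UA 1 and UA 2 exceeded controls 3 and 4. The means of 1715 ± 129 CPM and 1647 ± 73.6 CPM (SD, n = 4 each) gave a log2 fold change of -0.059 (SE 0.065, edgeR adjusted p = 0.912), or 0.96-fold with an interval of 0.869 to 1.06.

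The eggshell genes were *cbd-1* and *chs-1*. *cbd-1* (CELE_H02I12.1) encodes a protein with chitin-binding domains that is a component of the vitelline layer, and lies on chromosome IV from 11372991 to 11377627 on the plus strand, with 4221 bases of exon in 10 blocks. *chs-1* (CELE_T25G3.2) encodes the chitin synthase that makes the chitin of the eggshell, and lies on chromosome I from 7554855 to 7559629 on the plus strand, with 4288 bases in 10 blocks.

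*cbd-1* stood at 3229, 3224, 3404 and 3347 CPM in control and at 3289.7, 3369, 3144 and 3540.4 CPM with UA. UA 4 was the highest and UA 3 the lowest of the 8, so that the control range lay inside the UA range. The means of 3301 ± 88.9 CPM and 3336 ± 165 CPM (SD, n = 4 each) gave a log2 fold change of 0.015 (SE 0.059, edgeR adjusted p = 0.979), or 1.01-fold with an interval of 0.922 to 1.11.

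*chs-1* stood at 782, 824, 775 and 814 CPM in control and at 760.3, 765, 771 and 807 CPM with UA. Each UA value was lower than its same-numbered control, yet UA 4 exceeded controls 1 and 3. The means of 799 ± 23.8 CPM and 776 ± 21.3 CPM (SD, n = 4 each) gave a log2 fold change of -0.042 (SE 0.043, edgeR adjusted p = 0.904), or 0.971-fold with an interval of 0.909 to 1.04.

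*egg-1* and *egg-3* act at the egg surface. *egg-1* (CELE_B0244.8) encodes a membrane protein with LDL-receptor repeats that the oocyte needs for fertilization, and lies on chromosome III from 5728180 to 5730159 on the plus strand, with 1795 bases of exon in 5 blocks. *egg-3* (CELE_F44F4.2) encodes a phosphatase-like protein that holds the chitin synthase and the kinase MBK-2 at the oocyte cortex until egg activation, and lies on chromosome II from 10882408 to 10884441 on the minus strand, with 1794 bases in 6 blocks. Each is overlapped by 1 gene on the opposite strand, CELE_B0244.9 for *egg-1* and CELE_F44F4.1 for *egg-3*. These partners had at most 8 and 43 counts in any library, against at least 37767 for *egg-1* and 11925 for *egg-3*.

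*egg-1* stood at 1044, 1071, 909.9 and 937 CPM in control and at 992, 1007, 929 and 941 CPM with UA. All UA values lay inside the control range. The means of 990.3 ± 78.8 CPM and 967 ± 38.02 CPM (SD, n = 4 each) gave a log2 fold change of -0.034 (SE 0.063, edgeR adjusted p = 0.949), or 0.976-fold with an interval of 0.886 to 1.08.

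*egg-3* stood at 317, 333, 299 and 303 CPM in control and at 306, 317, 294 and 282 CPM with UA. Each UA value was lower than its same-numbered control, and UA 1 and UA 2 exceeded controls 3 and 4. The means of 313 ± 15.6 CPM and 299.8 ± 15.3 CPM (SD, n = 4 each) gave a log2 fold change of -0.062 (SE 0.051, edgeR adjusted p = 0.864), the most negative of the 9, or 0.958-fold with an interval of 0.886 to 1.04.

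**Figure D1:**
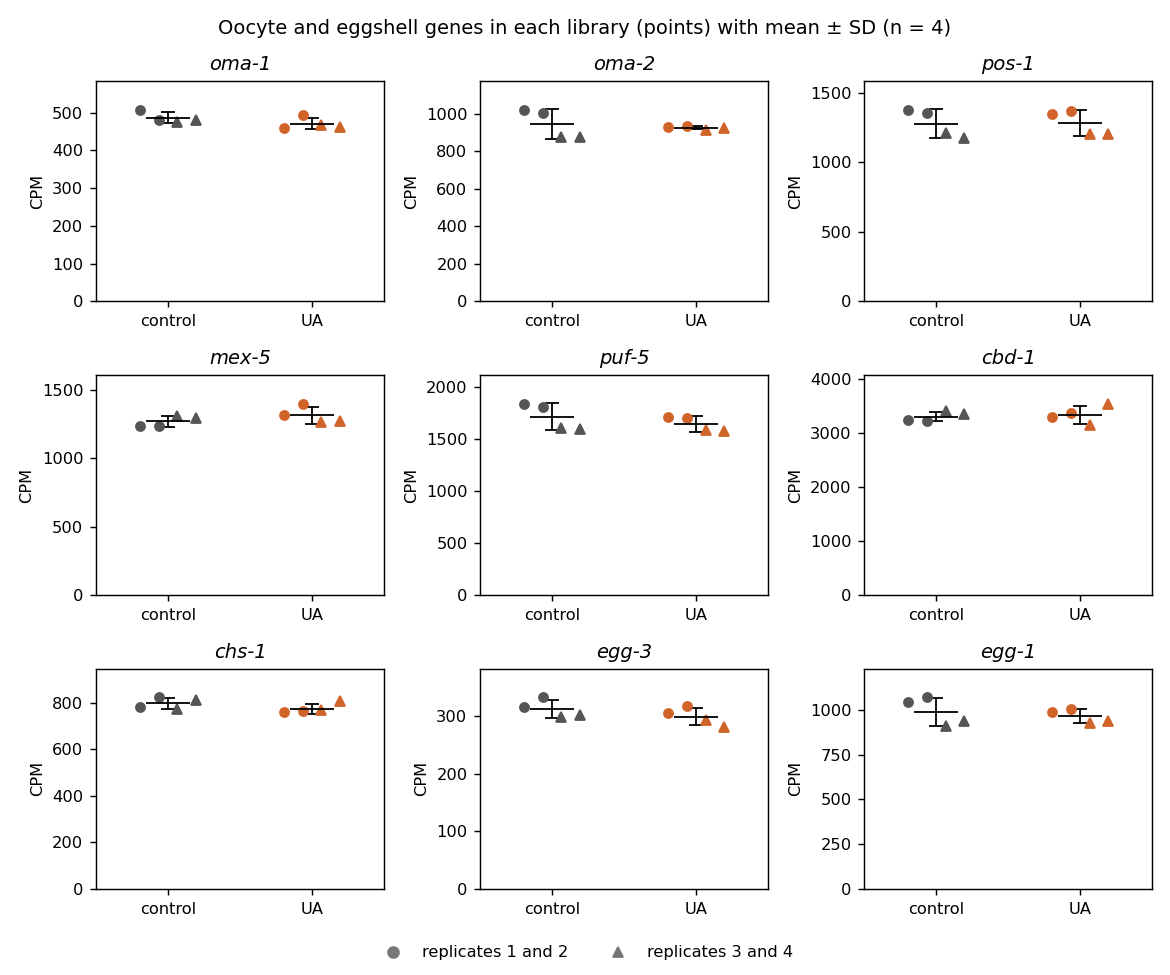
Level of each of the 9 genes (y axis, CPM from 0) in the 4 control and 4 UA libraries, with the mean and SD of each condition as black lines; circles are replicates 1 and 2, triangles replicates 3 and 4. Control and UA values overlap in every panel, and for *pos-1*, *puf-5*, *egg-1*, *egg-3* and *oma-2* the circles lie above the triangles in both conditions.

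A fit with the replicate number as a block left the 9 genes uncalled. In it their lowest unadjusted p was 0.109 and their lowest adjusted p 0.54, both for *egg-3*, while over all genes 7.97% passed the study's thresholds and 0.838% an adjusted p under 0.05. *egg-3*, *chs-1* and *puf-5* were lower with UA in 4 of 4 same-numbered pairs, *oma-1* was lower in 3 of 4, *cbd-1* was higher in 3 of 4, and *oma-2*, *egg-1*, *mex-5* and *pos-1* were higher in 2 of 4.

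The functional partners of the egg surface genes had somewhat larger values. *egg-2*, the partner of *egg-1* with which it acts redundantly, had 481 ± 33.4 CPM in control and 448 ± 15.2 CPM with UA (SD, n = 4 each, log2 fold change -0.10, SE 0.055, edgeR adjusted p = 0.746). *egg-4* and *egg-5* encode phosphatase-like inhibitors of MBK-2 that act with EGG-3. *egg-4* had 284 ± 18.2 CPM in control and 261 ± 8.83 CPM with UA, a log2 fold change of -0.12 (SE 0.051) with an unadjusted edgeR p of 0.0414 and an adjusted p of 0.664, under the fold threshold. *egg-5* had 311 ± 28.5 and 289.6 ± 16.1 CPM (log2 fold change -0.11, SE 0.067). The UA value was under its same-numbered control in 4 of 4 pairs for *egg-2* and *egg-4* and in 3 of 4 for *egg-5*. With the replicate block their unadjusted p fell to 0.0371 for *egg-2*, 0.011 for *egg-4* and 0.0461 for *egg-5*, with adjusted p of 0.399, 0.248 and 0.426, and none reached a 1.2-fold change.

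*mex-6*, which acts redundantly with *mex-5*, had a log2 fold change of 0.025, and *puf-6* and *puf-7*, which act with *puf-5*, had -0.012 and -0.0087. *lin-41* and *gld-1*, translational repressors of the growing oocyte and of the meiotic germline, had -0.034 and -0.010. None of these 5 passed either threshold. How the counting treated reads that fit 2 genes is not given in the sources used here, so the split of reads between near relatives such as *egg-1* and *egg-2*, *mex-5* and *mex-6*, or *puf-6* and *puf-7* is uncertain.

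Of 15 genes of the eggshell, egg activation and yolk uptake, *perm-4* alone passed the study's thresholds, where 5.67% of all genes tested did. It encodes a vitelline layer protein that functions together with CBD-1 and PERM-2 in the outer eggshell. It stood at 1665, 1568, 1458 and 1823 CPM in control and at 1920.0, 1906, 2111 and 2136 CPM with UA, so all 4 UA populations lay above all 4 controls. Over all genes tested, 4.78% had groups separated in either direction. The means of 1628 ± 155 CPM and 2018 ± 122 CPM (SD, n = 4 each) gave a log2 fold change of 0.31 (SE 0.077), or 1.24-fold with an interval of 1.101 to 1.395, and passed the study's thresholds (unadjusted p = 0.00236) but not the adjusted p, at 0.272. The adjusted p was 0.0112 with DESeq2 and 0.0797 with the replicate block. *perm-2*, chosen here after its values were seen because it works with *perm-4*, had 1277, 1179, 1061 and 1391 CPM in control and 1325, 1063, 1511 and 1296 CPM with UA, which overlap (log2 fold change 0.082, unadjusted p = 0.474).

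**Figure D2:**
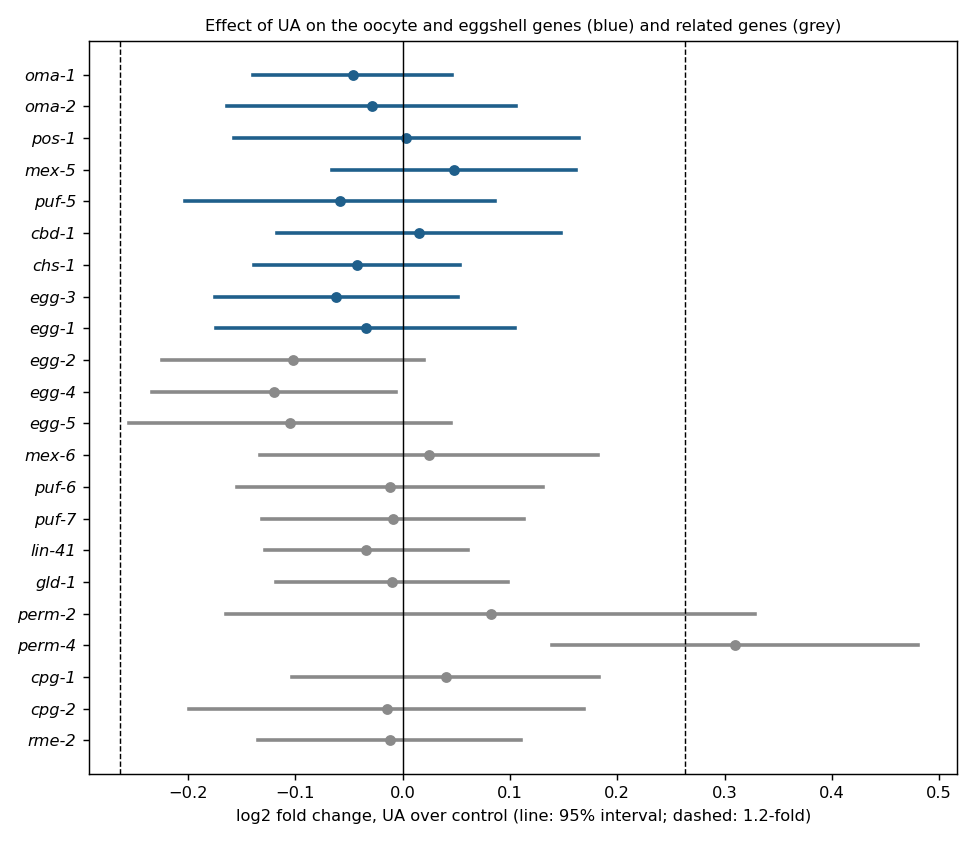
Log2 fold change of UA over control (x axis) for the 9 genes in blue and related genes in grey, with 95% intervals as lines and the 1.2-fold limits dashed. All blue intervals, from -0.20 to 0.16, lie between the dashed lines, and *perm-4* at 0.31 is the one point beyond them.

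Lists of other genes of the same programme were counted beside the 9. Of 15 genes of the eggshell, egg activation and yolk uptake, 1 rose past the study's thresholds (*perm-4*) and none fell, beside 4.12% and 1.55% of all genes tested. Their median log2 fold change was -0.059 and 11 of 15 lay under 0, beside 51.1% of all genes tested. In the fit without the block 2 of the 15, *perm-4* and *egg-4*, had an unadjusted p under 0.05, beside 7.25% of all genes tested. With the replicate block 4 did, *egg-2* and *egg-5* in addition, beside 11.4% of all genes in that fit. Of the 15 genes 9 had a log2 fold change farther from 0 than any of the 9 oocyte and eggshell genes above, the farthest being -0.062. The share of all genes tested that lay this far from 0 was not counted, and their median SE was 0.14. The most abundant of the list, *cpg-2*, a chondroitin proteoglycan of the inner eggshell, had 4936 CPM in control and 4885 CPM with UA, a log2 fold change of -0.015.

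Of 22 germline RNA regulators none passed the thresholds in either direction, beside 5.67% of all genes tested. None of the 22 had an unadjusted p under 0.05, beside 7.25% of all genes tested. Their median log2 fold change was -0.021 and 16 of 22 lay under 0, beside 51.1% of all genes tested. The most abundant, *cgh-1*, a DEAD-box helicase that protects stored maternal messages, had 2293 CPM in control and 2288 CPM with UA. Of 18 genes of meiosis and germ granules none passed the thresholds, beside the same 5.67%. Their median was -0.024 and 14 of 18 lay under 0, beside the same 51.1%. Of these 18 only *htp-3*, a meiotic chromosome axis protein, had an unadjusted p under 0.05, beside 7.25% of all genes tested. It had 186 ± 3.67 CPM in control and 176 ± 3.48 CPM with UA (log2 fold change -0.083, edgeR adjusted p = 0.646). Its 4 UA values lay below its 4 control values, and 4.78% of all genes tested had groups separated in either direction. *pgl-1*, a germ granule protein and the most abundant of the 18, had 618 and 609 CPM. No gene of these 3 lists passed an adjusted p under 0.05, beside 0.0948% of all genes tested. The intervals of 12 of 15, 21 of 22 and 17 of 18 genes lay inside a 1.2-fold change. The same held for 35.7% of all genes tested and for 81.2% of the 564 genes at least as abundant as *egg-3*.

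Markers of the other tissues of a whole animal were counted as well. Of 43 sperm genes, 35 of them major sperm protein genes, 4 had enough counts to be tested and 8 had no count in any library. The summed CPM of all 43 ran from 4.18 to 6.32 in control and from 5.31 to 11.3 with UA. Among the major sperm protein genes UA 4 alone stood out, with 252 summed counts against 38 to 67 in every other library. *spe-11*, a paternal factor needed by the embryo, rose from 0.140 to 0.571 CPM (log2 fold change 2.0, adjusted p = 0.239 with edgeR and 0.0407 with DESeq2). It was the single call among the 4 tested, where 4.12% of all genes tested rose past the thresholds. Its control values of 0.0482 to 0.279 CPM lay near the floor, against 0.409 to 0.784 CPM with UA. The fold change thus rests on few counts, and the gene passed the count filter mainly through its UA libraries. *spe-41*, a sperm calcium channel and the most abundant tested gene of the list, had 2.65 and 3.24 CPM. Sperm transcripts were thus scarce beside those of the oocyte, and their part in the values of the 9 genes was not tested.

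Of 5 genes of the gonadal sheath and somatic gonad, which surround the oocytes, none passed the thresholds, beside 5.67% of all genes tested. *inx-8*, a sheath innexin and the most abundant of the 5, had 108 CPM in control and 124 CPM with UA (log2 fold change 0.20, unadjusted p = 0.011, edgeR adjusted p = 0.442). Of 10 early zygotic genes 6 could be tested, and 1 of them fell past the thresholds, beside 1.55% of all genes tested. This was *hch-1*, a hatching protease, which fell from 4.84 to 2.68 CPM (log2 fold change -0.85, adjusted p = 0.332 with edgeR and 0.0354 with DESeq2). Summed over the list, early zygotic transcripts stood at 10.7 to 14.98 CPM in control and 9.06 to 12.8 CPM with UA.

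In the soma, 1 of 10 intestinal genes rose and 1 of 3 tested hypodermal genes of 5 fell, beside 4.12% and 1.55% of all genes tested. The intestinal gene was the transcription factor gene *elt-2* (5.57 to 8.51 CPM, log2 fold change 0.61, adjusted p = 0.343 with edgeR and 0.0421 with DESeq2). Its log2 fold change was 1.01 in replicates 1 and 2 and 0.25 in replicates 3 and 4, under the fold threshold there (edgeR adjusted p of the interaction 0.352). The hypodermal gene was the adult collagen gene *col-19* (106 to 73.2 CPM, log2 fold change -0.54, edgeR adjusted p = 0.558), with -1.03 in replicates 1 and 2 and -0.10 in replicates 3 and 4, where it did not pass (edgeR adjusted p of the interaction 0.211). None of 5 body wall muscle genes or 5 neuronal genes passed, beside 5.67% of all genes tested. Summed intestinal levels, mostly vitellogenins, overlapped between the conditions, at 48966 to 79353 CPM in control and 56803 to 76401 CPM with UA, with *vit-6* the most abundant at 22596 and 24686 CPM. The most abundant genes of the muscle, hypodermal and neuronal lists were *unc-54* (228 and 213 CPM), *lin-26* (167 and 160 CPM) and *snb-1* (201 and 203 CPM). The part of other tissues in the values of the 9 genes was not tested.

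**Figure D3:**
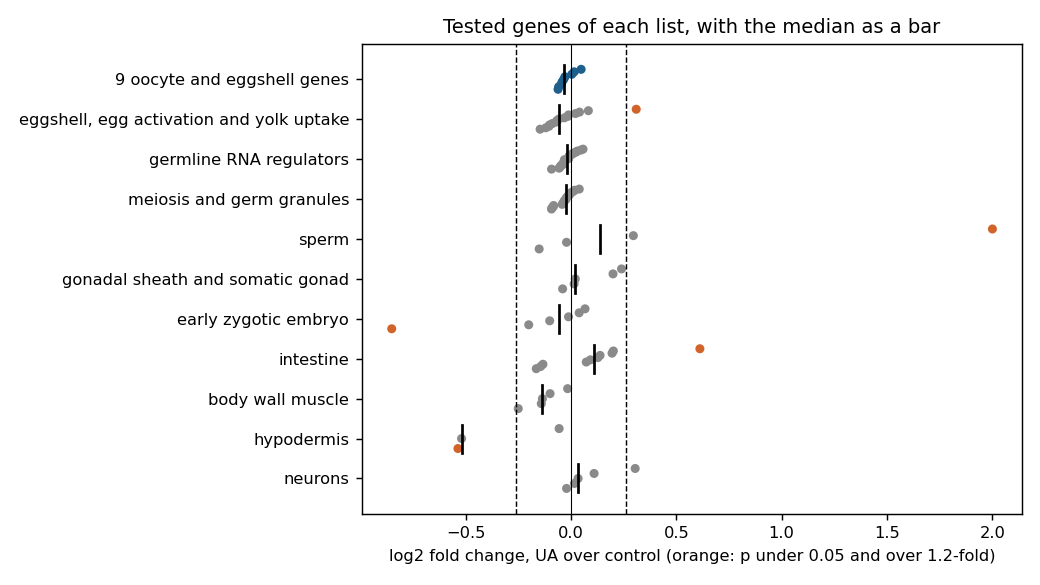
Log2 fold change of UA over control (x axis) of each tested gene (points) of the 9 oocyte and eggshell genes and of 10 marker lists, with the median of each as a bar and 1.2-fold as dashed lines; orange points passed the study's thresholds. The 9 genes lie between -0.06 and 0.05, and the 3 germline lists hold 1 orange point, *perm-4*.

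Between genes, the level per length spanned a wide range. *pos-1* was highest at 1148 CPM per kilobase on average over the 8 libraries (range 1050.1 to 1235), which ranked 110 among the 13720 genes tested. *puf-5* followed at 813 (764 to 890.4), then *cbd-1* at 786 (745 to 839), *mex-5* at 654 (625 to 709), *oma-2* at 603 (565 to 659.9) and *egg-1* at 545 (507 to 597). *oma-1* had 266 (255 to 282), *chs-1* 184 (177 to 192) and *egg-3* 171 (157 to 186), the last at rank 669. By this measure the enzyme that makes the chitin and the protein that anchors it were the lowest of the 9, and 4 of the 5 RNA-binding protein genes stood among the first 5 places.

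Not all neighbours in this order were separate. The ranges of *puf-5* and *cbd-1* overlapped, with *puf-5* higher in 5 of 8 libraries, and so did those of *mex-5* and *oma-2*, with *mex-5* higher in 6 of 8. *oma-2* was higher than *egg-1* in 8 of 8 libraries and *chs-1* higher than *egg-3* in 8 of 8, although their ranges overlapped. The other neighbours did not overlap. Without division by length, *cbd-1* led at rank 10 among all genes by CPM and *pos-1* stood at rank 70.

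**Figure D4:**
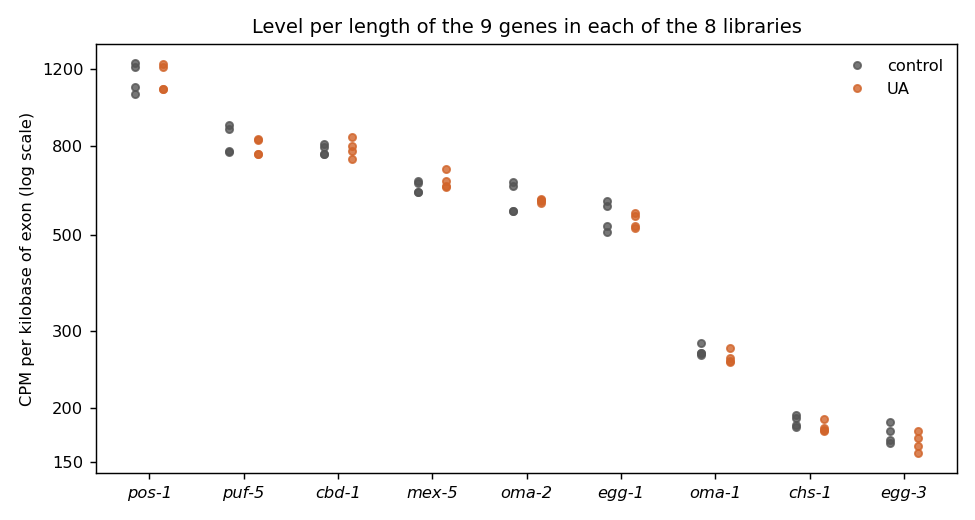
Level per length (y axis, CPM per kilobase of exon, log scale) of the 9 genes in each control library (grey) and UA library (orange). *pos-1* stands alone above 1050 and *chs-1* and *egg-3* lie together under 193, with the 2 conditions overlapping for every gene.

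The values of *pos-1*, *puf-5*, *egg-1*, *oma-2* and *egg-3* followed the replicate number more than the treatment. For these 5 genes the 4 libraries of replicates 1 and 2, control and UA, all lay above the 4 libraries of replicates 3 and 4, and none of the 9 showed the opposite order, beside 9.19% and 8.76% of all genes tested. The labels name no such grouping of replicates, and it was known from earlier results on these data, so the levels are described with no test. *pos-1* averaged 1365 CPM in replicates 1 and 2 and 1199.6 CPM in replicates 3 and 4, and *puf-5* averaged 1768 and 1594 CPM. The averages were 1028 and 929 CPM for *egg-1*, 970.3 and 896 CPM for *oma-2*, and 318 and 294 CPM for *egg-3*.

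The other 4 genes did not follow it. *oma-1* averaged 485 and 472 CPM, *mex-5* 1297 and 1287 CPM, *chs-1* 783 and 792 CPM, and *cbd-1* 3278 and 3359 CPM, with overlapping ranges. The same order, replicates 1 and 2 above replicates 3 and 4, was seen in 4 of the 15 eggshell and activation genes, 8 of the 22 germline RNA regulators and 3 of the 18 meiosis and germ granule genes. Of the 10 intestinal genes 4 had the opposite order and none this one. What the replicate numbers shared was not tested.

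The effect of UA was computed within each of these pairs of replicates. In replicates 1 and 2 alone *mex-5* had a log2 fold change of 0.14 (unadjusted p = 0.0235, edgeR adjusted p = 0.213) and *oma-2* of -0.11 (unadjusted p = 0.052), and no gene of the 9 passed the study's thresholds, beside 11.8% of all genes. In replicates 3 and 4 alone the values were -0.040 for *mex-5* and 0.068 for *oma-2*, and again none of the 9 passed, beside 5.55% of all genes. The difference of the UA effect between the pairs, tested as an interaction term, was 0.19 (SE 0.069, unadjusted p = 0.0193, edgeR adjusted p = 0.482) for *oma-2* and -0.17 (SE 0.076, unadjusted p = 0.0464, edgeR adjusted p = 0.571) for *mex-5*. These 2 of 9 genes had an unadjusted p under 0.05, beside 8.55% of all genes, and no gene of the 9 passed an adjusted p under 0.05.

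The spread within a condition also differed between the genes. On the log2 scale the SD within a condition was smallest for *chs-1* at 0.041 and *oma-1* at 0.044, and largest for *pos-1* at 0.11. The median of the 9 was 0.072, beside 0.19 over all genes and 0.080 over the 564 genes at least as abundant.

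Over the 8 libraries the 9 genes fell into a group that varied together and 3 genes that did not. These correlations are a description over libraries that share conditions and replicate numbers. Of 36 pairs, 23 had a Pearson r over 0 and 9 an r over 0.75. The nearest pair was *egg-1* and *puf-5* (r = 0.95), and *oma-2* was nearest to *egg-1* (0.91), *pos-1* to *puf-5* (0.90), *egg-3* to *puf-5* (0.86) and *oma-1* to *puf-5* (0.63). *cbd-1* and *mex-5* were nearest to each other (0.39), and *chs-1* had no near partner (0.17 with *cbd-1*). The lowest r was -0.54, between *chs-1* and *mex-5*. Against the mean pattern of the 9, *egg-1* had an r of 0.93 and *puf-5* of 0.91, while *chs-1* had 0.17, *mex-5* -0.02 and *cbd-1* -0.14. This mean includes the gene itself, so these r values are in part built in.

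**Figure D5:**
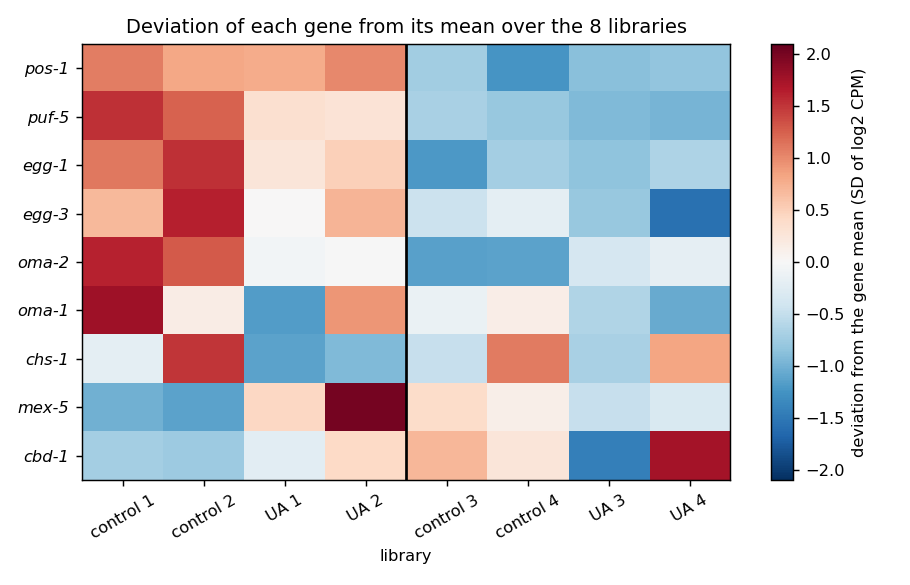
Deviation of each of the 9 genes (rows) from its own mean over the 8 libraries (columns), in SD of log2 CPM, red above and blue below the mean, with replicates 1 and 2 left of the black line. The upper 5 rows change sign at or near the line, and *chs-1*, *mex-5* and *cbd-1* do not, with *mex-5* highest in UA 2 at 2.01 SD and *cbd-1* highest in UA 4 at 1.75 SD.

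Outside the 9, the genes whose pattern over the 8 libraries was most like their mean were Y52E8A.2 (r = 0.98), C45H4.14 (0.97), *ccdc-12* (0.97), *uri-1* (0.97) and *fbxa-210* (0.97). They were taken from 6945 genes with a mean of at least 10 CPM, of which 134 had an r of at least 0.9, so that these 5 are the top of a long series of alike patterns. None of the 5 passed an adjusted p under 0.05 for UA, with log2 fold changes between -0.11 and -0.051.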

How the data were processed

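RNA of 8 whole-animal populations (4 UA, 4 control, grouped by their treatment label) was sequenced as stranded poly(A) libraries. The deposited values are raw fragment counts per RefSeq gene, with no normalization. Before counting with featureCounts 1.6.2, the authors had filtered the reads in quality control and mapped the clean ones to WBcel235 by HISAT (HISAT2 in the submitters' processing notes, version not given in the sources used here). Whether strand was used in counting is not given in the sources used here. Exon lengths and coordinates are those of the same table. Of 46928 identifiers 46925 matched a RefSeq symbol or locus and 3 did not, and 24320 genes had no count.

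Counts were analysed in R 4.3.3 with edgeR 4.0.16 (filterByExpr, 13720 genes kept; TMM factors of 0.964 to 1.03; quasi-likelihood F test on condition; Benjamini-Hochberg adjustment), and the fit was tested on simulated data. The biological coefficient of variation was 0.16. Standard errors are the log2 fold change over the root of F, and intervals are 95%. Log2 CPM used a prior count of 2. Figures were drawn with matplotlib 3.10.9. Alternatives were DESeq2 1.42.0, RLE factors, total counts, no filter, a replicate block, each library left out in turn, and each pair of replicates alone.

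Libraries of 1 condition differed by 7.08 to 53.5 in chi-square per degree of freedom, so no library was a copy of another. Deviations of same-numbered control and UA libraries correlated at 0.31, 0.246, 0.191 and 0.353, all over 0.1, so the numbers were taken to pair the libraries. This pairing comes from the data, since no label names a shared batch. Libraries of different number within replicates 1 and 2 or within replicates 3 and 4 correlated nearly as well, at 0.247 on average against 0.275 for the same number, and 5 of 8 libraries were most like the one of the same number. The likeness is thus mostly that of these pairs of replicates. The populations were harvested separately. The main fit treats the libraries as independent, so its p-values measure a spread that includes the difference between these pairs of replicates. The fit with the replicate block takes out differences between replicate numbers. For *pos-1* the SE was 0.072 in the main fit and 0.041 with the block.

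The genes and lists were chosen with earlier results of these data known. All 9 genes are named. From the lists a gene is named if it passed the study's thresholds, is the most abundant of its list, or is a relative or functional partner of the 9 (*egg-2*, *egg-4*, *egg-5*, *mex-6*, *puf-6*, *puf-7*, and the oocyte and germline repressors *lin-41* and *gld-1*). *perm-2*, *htp-3* and *cpg-1* stand outside this rule where named and were chosen after their values were seen. No sequences are printed.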

Additional observations from a re-analysis of the deposited data

Results flagged for a closer look

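The level of *oma-1* in control 1, at 507 CPM, stood apart from the other 3 controls, at 476 to 481 CPM. Without control 1 the log2 fold change of *oma-1* was -0.025.

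Among the marker genes, *unc-54* in control 3 was at 127 CPM against 253 to 271 CPM in the other controls, and *col-19* in control 3 was at 77.3 CPM against 112 to 118 CPM. The 3 values were found among 62 groups of 4 libraries (31 genes in 2 conditions) by the gap of the farthest library over the range, past Dixon's 95% critical value. Chance marks about 1 group in 20.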

How the results depend on the processing

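None of the 9 genes passed the study's thresholds or an adjusted p under 0.05 under any of the 15 alternatives. Their largest log2 fold change in any was 0.14 (*mex-5*, replicates 1 and 2 alone), with the lowest adjusted p, 0.213. Leaving out 1 library gave -0.060 to 0.012 for *oma-2*, -0.013 to 0.043 for *cbd-1*, -0.068 to 0.0054 for *egg-1* and -0.033 to 0.042 for *pos-1*, and kept the sign of the other 5. In replicates 3 and 4 alone the sign turned for *oma-2* (0.068), *cbd-1* (-0.016), *egg-1* (0.016) and *mex-5* (-0.040). The cause was not tested.

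With the replicate block 115 genes passed an adjusted p under 0.05, in place of 13. The count was 167 with DESeq2, 45 without a filter, 546 in replicates 1 and 2 alone, 26 in replicates 3 and 4 alone, and 5 to 16 when 1 library was left out (lowest without UA replicate 1; 6 without control 1). Genes past the study's thresholds numbered 778, and 1616 in replicates 1 and 2 alone, where 59.8% of calls were higher with UA, in place of 72.6%. The block changed no call among the 9 genes. With DESeq2 4 named genes were among the 167 that passed an adjusted p under 0.05, *perm-4*, *spe-11*, *hch-1* and *elt-2*. These 4 had been named for passing the study's thresholds in the same libraries, so this adds no separate support. The values of *spe-11* rest on few counts. The replicate block called 2 hypodermal genes in place of 1.

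List counts moved as follows. Without a filter 5 sperm genes and 3 hypodermal genes passed, and 1097 genes over all. In replicates 1 and 2 alone, 0 eggshell and activation, 2 sperm, 3 intestinal and 5 muscle genes passed, beside 11.8% of all genes. All 5 muscle genes were lower with UA there (*unc-54* at -0.45). In replicates 3 and 4 alone, 2 eggshell and activation, 3 intestinal and 0 hypodermal genes passed, beside 5.55% of all genes. Leaving out 1 library gave 1 to 2 eggshell and activation genes (2 without UA 2), 1 to 2 sperm genes (2 without control 4), 0 to 1 sheath genes (*inx-8*, at 0.27 without control 4), 1 to 2 intestinal genes (2 without UA 2), 0 to 3 muscle genes (3 without control 3, with *unc-54* at -0.29), 0 to 1 hypodermal genes (0 without control 1) and 0 to 1 neuronal genes (1 without UA 4). Over all genes 641 to 937 passed in the fits with 1 library left out. *perm-4* passed in 8 of 8 such fits (0.26 to 0.37) and had 0.25, under the fold threshold, in replicates 1 and 2 alone. *col-19* did not pass without control 1 (-0.48), control 4 (-0.48), UA 1 (-0.44) or UA 2 (-0.41).

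Among the other named genes small values changed sign. With total counts they were 0.000365 for *gld-1* and 0.0084 for *cgh-1*. In replicates 1 and 2 alone they were 0.058 for *gld-1*, 0.024 for *lin-41*, 0.077 for *cgh-1*, 0.041 for *lin-26* and -0.015 for *snb-1*. In replicates 3 and 4 alone they were 0.011 for *cpg-2*, -0.095 for *mex-6*, 0.013 for *puf-6*, 0.0094 for *puf-7*, 0.0083 for *pgl-1*, -0.17 for *spe-41* and 0.29 for *unc-54*. Leaving out 1 library gave -0.055 to 0.028 for *cpg-2*, -0.030 to 0.014 for *gld-1*, -0.034 to 0.073 for *mex-6*, -0.060 to 0.028 for *puf-6*, -0.048 to 0.020 for *puf-7*, -0.035 to 0.051 for *cgh-1*, -0.29 to 0.016 for *unc-54* and -0.024 to 0.053 for *snb-1*.

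For the 9 genes depth was not limiting, as each had at least 11925 counts in every library. The spread between 4 populations sets the intervals, and effects inside them were not detectable.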

Other observations

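Ratios of 10 pairs of functionally linked genes were computed per length, a measure in which the depth of a library cancels. The pairs were chosen with the results known, so the ratios are a description with no test. *egg-1* over *egg-2* ran from 1.98 to 2.05 in control and from 2.08 to 2.17 with UA, with all UA values above all control values (log2 difference 0.068). Neither gene passed the thresholds on its own, and the split of reads between these near relatives is uncertain.

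In the vitelline layer *perm-4* over *cbd-1* ran from 1.63 to 2.08 in control and from 2.16 to 2.56 with UA (log2 difference 0.30), and *perm-4* over *perm-2* from 0.867 to 0.914 and from 0.929 to 1.19 (log2 difference 0.23). Both repeat the separation already seen in *perm-4* itself. The ratio of *perm-2* to *cbd-1* overlapped, at 1.79 to 2.38 and 1.81 to 2.76.

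For the other 6 pairs the groups overlapped. *oma-2* over *oma-1* was 2.12 to 2.43 in control and 2.20 to 2.35 with UA, and *mex-5* over *mex-6* was 1.44 to 1.63 and 1.48 to 1.67. *puf-5* exceeded its partners in all libraries, at 5.37 to 5.92 and 5.32 to 5.70 times *puf-6* and 4.53 to 4.91 and 4.503 to 4.73 times *puf-7*. *pos-1* over *mex-5* was 1.599 to 1.97 and 1.67 to 1.82, and *cpg-2* over *cpg-1*, the 2 proteoglycans of the inner eggshell, was 1.47 to 1.73 and 1.44 to 1.63.

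Summed over the 35 major sperm protein genes, UA 4 held 252 counts and the other 7 libraries 38 to 67.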
